A study of Homo sapiens with 3 samples.

Results

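The regions described here are 1403 H3K27ac peaks that both H3K27ac libraries of A2780 cells held and that lie apart from annotated coding and lncRNA genes. A region is a peak of the BPP list on chromosomes 1 to 22 and X that overlaps a CTR peak by at least 1 bp and overlaps no IgG peak. It also lies outside the span, and outside 1 kb on either side, of every protein-coding and every lncRNA gene of a RefSeq gene table. They are 7.86% of the 17841 BPP peaks on these chromosomes (95% Wilson interval 7.48% to 8.27%), and they overlap 1399 distinct CTR peaks of 14836. The regions were thus chosen by their presence in the BPP and CTR lists, their absence from the IgG list and their distance from genes, and none of these properties is a result.

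A2780 cells are an established line from a human ovarian carcinoma. The assay was CUT&Tag, in which an antibody tethers a transposase that cuts and tags nearby DNA, and each of the 3 groups had a single library. For BPP it was made with an H3K27ac antibody (CST) from cells given BPP, a peptide that, per the series design, competes for the phosphorylation site of BIN2. The CTR library used the same antibody; the sources used here do not say what its cells were given, and the design names a TAT peptide for RNA-seq. The IgG library, made with an IgG labelled Jackson, gives the background, with 7701 peaks. With 1 library per group there is no replicate check and no test across cultures, the reads per library are unknown, and every interval below covers counting error only and treats peaks as independent.

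Of 22 listed genes of ovarian carcinoma and epithelial identity, 3 had an H3K27ac peak within 1 kb of a gene end in both lists, namely KRT8, KRT18 and ARID1A, against 23.6% of all protein-coding genes. ELF3 and MSLN had one in BPP only. PAX8, WT1, EPCAM, MUC16 and WFDC2 had such a peak in neither list. A gene without a peak may still be expressed, since the lists hold only what passed the peak caller.

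H3K27ac is acetylation of lysine 27 of histone H3, placed mainly by the enzymes EP300 and CREBBP and removed by histone deacetylases. It marks active promoters and active enhancers, the distal elements that raise transcription of genes elsewhere on the chromosome. Genes for short structural RNAs also carry it at their own promoters: U1, U2 and U5 small nuclear RNA and U3 small nucleolar RNA are made by RNA polymerase II, whereas tRNA, 5S rRNA and U6 snRNA are made by RNA polymerase III and the 45S rRNA precursor by RNA polymerase I.

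Some of the regions hold the gene of a mature microRNA, a short RNA that pairs with messenger RNA mainly through its seed. There were 9 mature microRNAs from 7 genes under 5 regions, and their 9 seeds were all distinct. The 7 genes are 0.366% of the 1911 annotated microRNA genes. A microRNA gene lay under 0.356% of regions and 0.307% of shared peaks inside protein-coding genes. The share was 0.643% for shared peaks at gene ends and 0.168% for those over lncRNA genes. The microRNAs of 3 of the 5 regions are shown as examples, and whether A2780 cells make them was not tested. The sequences are RefSeq's (GRCh38.p14), 5′ to 3′, with the seed, bases 2 to 8, in capitals.
hsa-miR-193a-5p: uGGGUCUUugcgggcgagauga
hsa-miR-193a-3p: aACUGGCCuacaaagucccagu
hsa-miR-1827: uGAGGCAGuagauugaau
hsa-miR-6077: gGGAAGAGcuguacggccuuc
MIR193A lies on the plus strand at chr17:31560016-31560037 (5p) and chr17:31560050-31560071 (3p), inside the region chr17:31559980-31561294. That region had a fold of 4.35 in BPP and 4.69 in CTR. The MIR1827 region, chr12:100189519-100191151, had 3.88 in BPP, with the mature sequence on the plus strand at chr12:100189932-100189949. The CTR peak that overlaps this region, chr12:100190914-100191241 with fold 3.41, does not reach the microRNA. MIR6077, at chr1:148388294-148388314 on the plus strand, shares its region, chr1:148388130-148388898, with RNVU1-2, a variant U1 copy listed as a pseudogene, and there the fold was 9.98 in BPP and 9.23 in CTR. Fold is the authors' enrichment per peak over a background that is not described, and it describes and ranks peaks within a list; a difference between the BPP and the CTR value is not read as a change. The 2 remaining regions hold MIR4539, MIR4507 and MIR4538 on chromosome 14 and MIR6770-3 on chromosome 16, and their folds ran from 3.63 to 3.77 in BPP and from 3.36 to 3.51 in CTR.

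Regions also lay beside the genes of AP-1, the FOS and JUN family of transcription factors that cells induce within minutes of a growth or stress signal. The promoters of FOS and FOSB are shown because each gene has a shared region close by, while only that of FOS overlapped an H3K27ac peak. Both are the 250 bases before the RefSeq start (GRCh38.p14), plus strand, with GC box (GGGCGG) and TATA box (TATAAA) matches on either strand in capitals.
FOS, chr14:75278578-75278827: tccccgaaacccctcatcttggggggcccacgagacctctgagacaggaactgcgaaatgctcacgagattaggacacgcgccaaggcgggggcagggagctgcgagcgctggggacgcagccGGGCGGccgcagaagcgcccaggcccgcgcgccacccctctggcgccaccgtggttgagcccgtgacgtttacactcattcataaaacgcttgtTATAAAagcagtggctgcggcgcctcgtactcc
FOSB, chr19:45467746-45467995: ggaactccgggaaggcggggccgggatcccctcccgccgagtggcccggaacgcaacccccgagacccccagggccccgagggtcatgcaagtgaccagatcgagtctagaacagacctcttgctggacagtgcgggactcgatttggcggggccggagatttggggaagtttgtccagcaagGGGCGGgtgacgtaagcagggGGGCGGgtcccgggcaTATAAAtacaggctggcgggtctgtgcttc
The FOS stretch holds 1 GC box and 1 TATA box and the FOSB stretch 2 GC boxes and 1 TATA box. Over 22132 promoters of the same table and length, 53.7% held a GC box and 9.0% a TATA box. Neither stretch holds an exact match to the cAMP response element TGACGTCA (2.02% of promoters) or to the AP-1 element TGANTCA (5.35%). A CCAAT box, CCAAT (32.7%), and a CArG box (1.18%) were also absent, all searched on both strands. These exact letters are only missing from this window, and variants of an element were not searched. Both stretches do hold the first letters of the cAMP response element, as tgacgttt in FOS and tgacgtaa in FOSB. The windows from 250 bases before to 50 after the start overlapped a peak in both lists for FOS, with fold 5.34 in BPP and 9.22 in CTR, and in neither for FOSB.

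The shared region nearest FOS, chr14:75277509-75277827, lies 1.001 kb from the gene, the closest any region comes to a protein-coding gene, with fold 3.52 in BPP and 3.98 in CTR. The next by distance were regions at 1.006 kb from CIDEA (6.62 and 6.0) and at 1.01 kb from MOB2 (3.07 and 3.98). On the other side of the limit, 3 peaks at 990 bp from a coding or lncRNA gene were left out, with BPP folds from 2.998 to 4.67, among them 1 beside ELF3. At the 1 bp limit of overlap, the region near CENPC shared 1 bp with its CTR peak (fold 5.02 and 5.23), that near C1D 2 bp and that near JAG2 3 bp.

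As a set the regions were small, discrete peaks of moderate strength. Their median width was 551 bp and together they cover 0.922 Mb. The median fold in BPP was 4.99, with quartiles of 3.93 and 6.40, and the median −log10 q was 9.94. The lowest and highest fold were 1.80 and 22.1 in BPP and 1.81 and 25.6 in CTR. In the BPP list, shared peaks inside protein-coding genes had a median fold of 4.22 and shared peaks at gene ends 5.35, so the regions lie between these classes.

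Both lists ranked the regions alike. The BPP and CTR folds were within 2-fold of each other for 1401 of 1403 regions. Each region had to pass the peak caller in both lists, which by itself favours like folds. Other shared peaks were not compared in this way. By the authors' −log10 p-value, 228 regions (16.3%, interval 14.4% to 18.3%) were in the top 10% of both lists. This share was not computed for other shared peaks, so whether it is particular to the regions was not tested. The median −log10 q in BPP was 9.94 for the regions and 11.2 for shared peaks at gene ends. It was 10.2 for shared peaks over lncRNA genes and 8.49 for those inside protein-coding genes. Across the 1403 regions the Pearson correlation of the log2 folds was 0.891 and the Spearman correlation of the folds 0.846, as a description, since the regions share cells, assay, peak caller and copy number. Summits, the highest point of each peak, were not used to choose the regions. They lay within 200 bp of each other in 73.2% of regions (70.8% to 75.5%), with a median offset of 93 bp. Among shared peaks inside protein-coding genes this share was 63.2%, a difference of 9.96 percentage points (Newcombe interval 7.02 to 12.8), and among those at gene ends 65.5%, a difference of 7.71 points (4.90 to 10.4). Shared peaks over lncRNA genes, at 71.2%, differed by 2.01 points, with an interval from -2.21 to 6.39 that includes 0. The median widths were 551 bp for the regions, 590 bp inside genes and 645 bp at gene ends. Without the 345 regions over 500 kb from any protein-coding gene, the share with close summits was 69.4%.

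**Figure D1:**
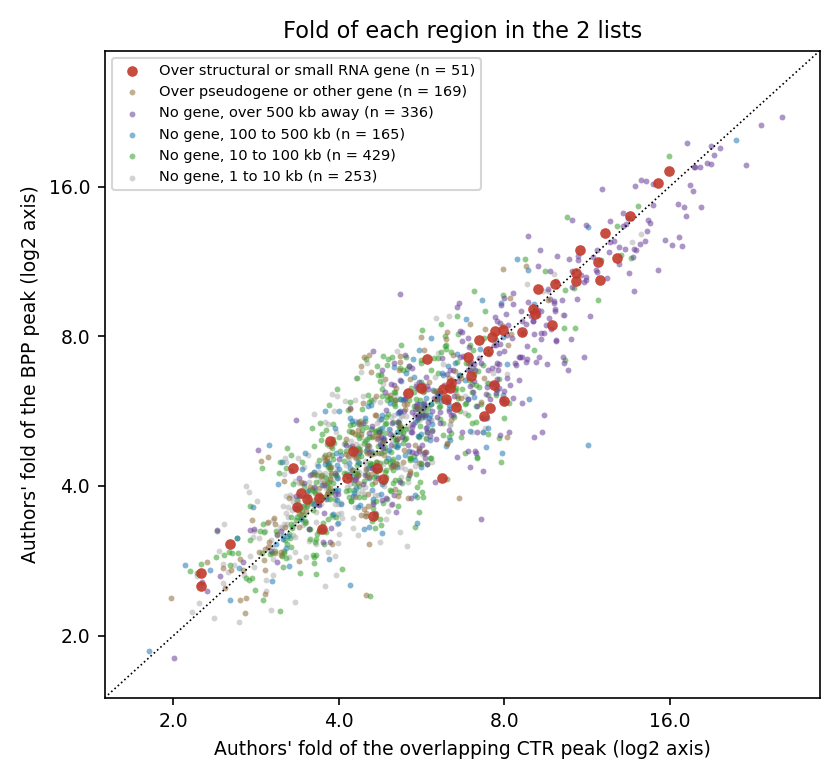
The authors' fold of each of the 1403 regions in CTR (x) and BPP (y), both on log2 axes, 1 point per region, coloured by what lies under or near it; the dotted line marks equal folds. All but 2 regions lie within 2-fold of the line, and 70 of the 101 regions with a BPP fold of 10 or more lie over 500 kb from genes.

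What lay under the regions divided them. A structural or small RNA gene lay under 51 regions, a pseudogene or another gene under 169, and no annotated gene under the rest. Of those without any gene, 336 were over 500 kb from the nearest protein-coding gene, 165 were at 100 to 500 kb, 429 at 10 to 100 kb and 253 at 1 to 10 kb. The RNA gene regions had the highest significance, with a median −log10 q of 39.7 in BPP and 39.1 in CTR. Of 58 regions with a −log10 q of 50 or more in BPP, 22 were among these 51. By fold, the regions over 500 kb from genes were highest, with a median of 6.60 in BPP and 7.11 in CTR, then the RNA gene regions with 6.38 and 6.95, and those at 1 to 10 kb lowest with 4.21 and 4.13. These groups were formed after the values were seen.

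Structural and small RNA genes lay under 3.64% of the regions, a property the choice of regions did not use directly. The share was 0.699% in intergenic peaks of the BPP list without a CTR partner (1573 peaks chosen with the same gene windows), a difference of 2.94 points (interval 1.92 to 4.09). In CTR peaks without a BPP partner it was 0.828%, a difference of 2.81 points (1.73 to 3.98), and in IgG peaks away from H3K27ac 0.103%, a difference of 3.53 points (2.65 to 4.65). Some other shared classes were closer. Peaks over lncRNA genes had 2.68%, a difference of 0.96 points with an interval from -0.89 to 2.47. The 134 shared peaks without a gene that overlapped IgG had 5.97%, a difference of -2.34 points (-7.77 to 0.78). Both intervals include 0, so no difference from these classes was detectable. Shared peaks at protein-coding gene ends had 1.18%, a difference of 2.46 points (1.51 to 3.61). Those inside protein-coding genes had 0.478%, a difference of 3.16 points (2.24 to 4.29). The unshared peaks are narrower, with median widths of 390 and 375 bp, and a wide peak meets a gene more easily. They are also weaker. The median −log10 q was 5.68 for BPP-only peaks against 9.94 for the regions in BPP, and 5.71 for CTR-only peaks against 9.52 in CTR. Regions over RNA genes had the highest significance, and the part of peak strength in these differences was not tested. Per Mb of peak sequence, 55.3 shared regions, 15.8 BPP-only, 19.8 CTR-only and 2.18 IgG peaks lay over such a gene. Shared peaks over lncRNA genes had 37.1 per Mb, those overlapping IgG 71.6, those at gene ends 16.4 and those inside genes 7.05. For all annotated genes other than coding and lncRNA genes, the shares were 15.7% of regions, 12.46% of BPP-only, 10.6% of CTR-only and 5.63% of IgG peaks. Per Mb, however, the shared regions, with 239, lay below the BPP-only peaks, with 282, and the CTR-only peaks, with 253. Pseudogenes lay under 11.7% of regions and 11.4% of BPP-only peaks, a difference of 0.31 points with an interval from -1.98 to 2.63. RNA gene copies are near-identical, and how reads that match several copies were placed is not stated in the sources used here, so which copy a peak belongs to is uncertain.

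**Figure D2:**
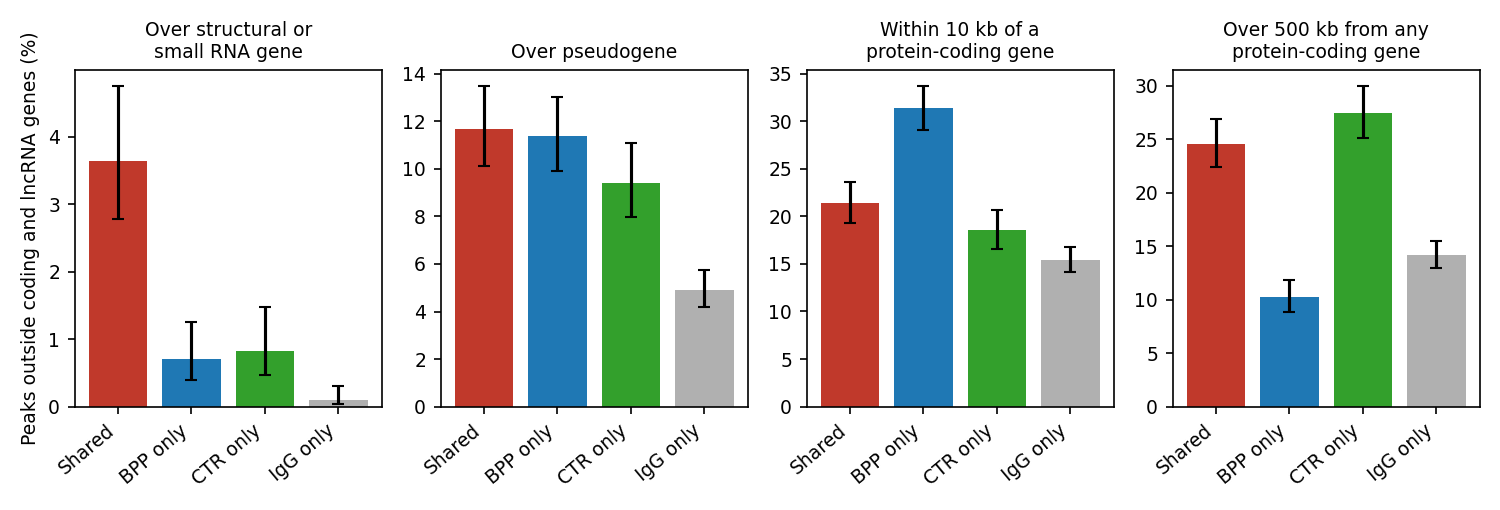
Shares of peaks outside coding and lncRNA genes (y, percent, with 95% Wilson intervals as bars) that lie over a structural or small RNA gene, over a pseudogene, within 10 kb of a protein-coding gene or over 500 kb from one, in 4 classes: the 1403 shared regions, 1573 BPP-only, 1328 CTR-only and 2914 IgG-only peaks. The first panel shows 3.64% of shared regions over RNA genes against less than 1% in each of the other classes.

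Regions over spliceosomal U1 genes were among the strongest. U1 pairs with the start of introns, and variant U1 genes (RNVU1) are diverged copies of it. U1 or variant U1 genes lay under 11 regions and the pseudogene copy RNVU1-2 under 1 more. These 12 regions had folds from 7.98 to 17.2 in BPP and from 7.59 to 15.9 in CTR, and none had an IgG peak within 10 kb. The region over RNU1-3, chr1:16666297-16667471, had the highest −log10 q of all 1403, with 553 in BPP and 473 in CTR at folds of 17.2 and 15.9. The region over RNU1-1, chr1:16513365-16514563, had folds of 12.9 and 12.2, and that over RNVU1-18, chr1:143729053-143730009, 16.3 and 15.2. RNVU1-8 (13.9 and 13.5), RNVU1-26 (11.9 and 11.0), RNVU1-7 (11.5 and 12.8) and RNVU1-31 (10.4 and 11.96) followed. Counted by gene, 4 of 4 U1 genes and 14 of 17 variant U1 genes had a peak in both lists, of which 2 and 9 lay under a region described here; 1 U1 gene overlapped an IgG peak. These counts leave out copies listed as pseudogenes, of which RNVU1-22 also lay under a region.

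Genes of U2, U5 and U3, also made by RNA polymerase II, lay under regions too. The regions over them had median BPP folds of 6.37, 7.11 and 7.37, against 10.9 for the U1 and variant U1 regions. U2 pairs with the branch point of introns, and its genes form a tandem array of 13 annotated copies at chr17:43233790-43300231. The array with its flanks of 2 kb held 15 BPP peaks, 15 CTR peaks and 0 IgG peaks, and 13 of the BPP peaks were regions of the set. Of these, 8 lay over a U2 gene, with folds from 2.67 to 8.87 in BPP and from 2.25 to 9.08 in CTR. The strongest of them, chr17:43245815-43246973, had a −log10 q of 175 and 144. U5, which holds the exons during splicing, had 4 of 5 genes under a region: RNU5D-1 had folds of 10.7 and 10.8, RNU5A-1 7.85 and 7.19, RNU5B-1 6.38 and 7.66, and RNU5E-1 5.75 and 7.53. U3 guides cleavage of the ribosomal RNA precursor, and 4 of 5 SNORD3 genes lay under a region, at folds from 7.21 to 8.18 in BPP and from 5.80 to 8.63 in CTR. SNORD3B-1 was the strongest of them, with a −log10 q of 101 and 107.

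Regions over genes made by RNA polymerase III were weaker and fewer. Of 443 tRNA genes, 17 had a peak in both lists and 13 lay under 12 regions, with folds from 3.28 to 11.3 in BPP and from 3.72 to 11.8 in CTR. The highest, chr19:45478518-45479147, lies over TRU-TCA1-1, the selenocysteine tRNA, and 3.34 kb from FOSB. Its folds were 11.3 and 11.8, its −log10 q 81.9 and 78.5, and its summits were 1 bp apart. The remaining tRNA regions had BPP folds of 6.30 or less. U6, the catalytic snRNA, had 1 of 5 annotated genes under a region, RNU6-7, with 6.66 and 6.95.

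No 5S rRNA gene was overlapped by any peak, although peaks ran along the array between the genes. Its 17 annotated genes at chr1:228610266-228646158 repeat every 2.24 kb. The array and its 2 kb flanks held 12 BPP, 9 CTR and 0 IgG peaks, of which 8 were regions of the set. These regions had folds from 2.59 to 7.43 in BPP and from 2.24 to 6.40 in CTR. Their summits lay 0.76 to 1.16 kb from the centre of the nearest 5S gene, so they fall in the spacers and just before the first gene. The strongest, chr1:228622002-228622703, had a −log10 q of 125 and 73.3 and lies 21.9 kb from RHOU.

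**Figure D3:**
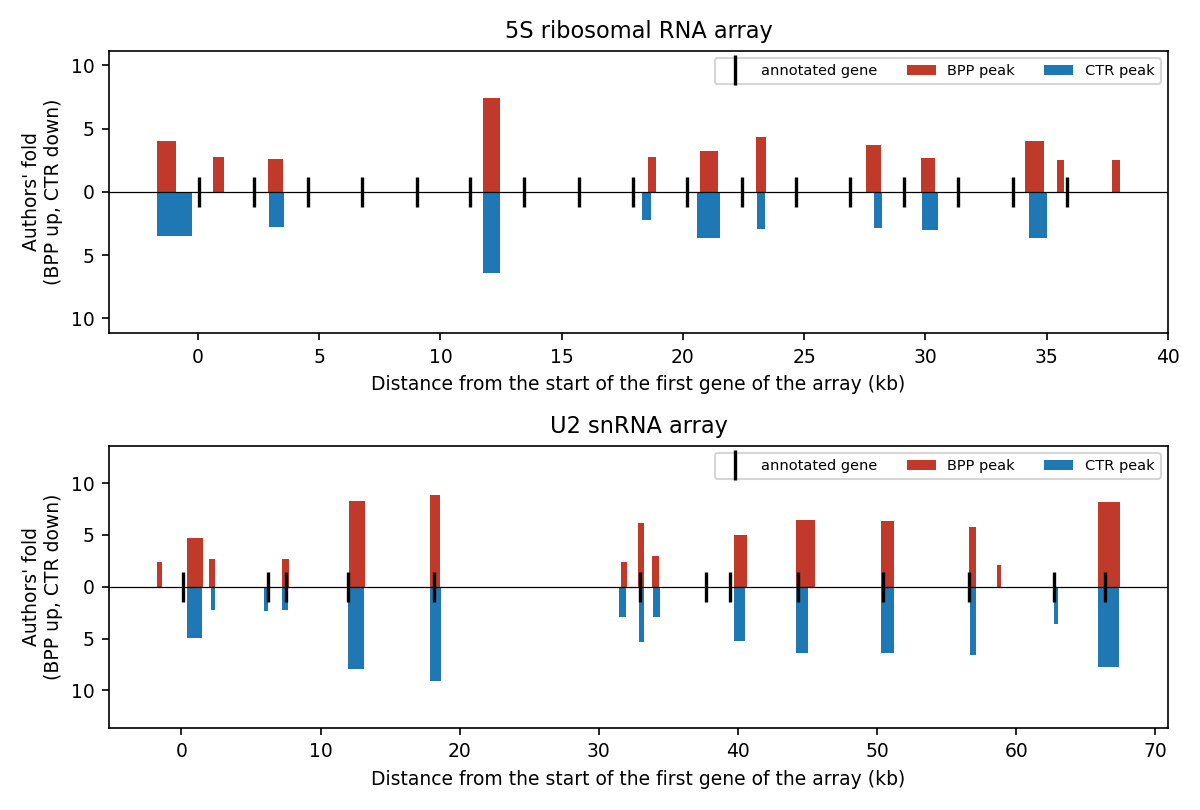
Peaks along the 5S rRNA array (top) and the U2 snRNA array (bottom): x, distance in kb from the start of the first gene; y, the authors' fold, BPP peaks drawn upward and CTR peaks downward; black ticks, annotated genes. Peaks of both libraries fall between the 17 5S genes, whereas 8 of the 13 U2 genes have a peak over them in both lists.

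The ribosomal 45S genes stood apart by their IgG signal. All 4 regions over 45S genes, on chromosome 21, had an IgG peak within 10 kb, and their folds were low, from 2.52 to 4.35 in BPP and from 2.24 to 3.69 in CTR. Of all 1403 regions, 137 (9.76%, interval 8.32% to 11.4%) had an IgG peak that near, against 6.72% of shared peaks inside protein-coding genes and 5.78% of those at gene ends. The second strongest region by −log10 q, chrX:115727523-115729928 near the actin-bundling gene PLS3, is one of them, with an IgG peak 2700 bp away. Its folds were 5.36 and 3.70 and its −log10 q 342 and 122. The part that this background has in the values was not tested.

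Pseudogenes are copies of genes that no longer give the gene's product. The regions over them had no common strength. The strongest, chr7:56373409-56373869, had folds of 3.89 and 3.83 at a −log10 q of 161 and 158, with an IgG peak 1490 bp away. AFG3L1P, a copy of a mitochondrial protease gene, had 6.28 and 5.72 at chr16:89994531-89996130, near DBNDD1. DTX2P1 had 6.81 and 6.50, and C19orf48P, under a region 9.20 kb from ACP4, had 9.54 and 8.21. Of transcribed pseudogenes, those with RNA evidence in RefSeq, 91 of 1246 (7.30%, interval 5.99% to 8.88%) lay under a region. Of those listed without it, 50 of 15212 did (0.329%, 0.249% to 0.433%). These totals count every such pseudogene, also those within coding or lncRNA genes, where the choice of regions allows none. The length of the pseudogenes was not taken into account, and these shares were not computed for other classes of peaks.

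The distance to coding genes was not fixed beyond 1 kb. Its median was 43.4 kb, against 23.9 kb for BPP-only, 62.1 kb for CTR-only and 75.3 kb for IgG-only intergenic peaks. Within 10 kb of a protein-coding gene lay 21.4% of regions and 31.3% of BPP-only peaks, a difference of -9.96 points (interval -13.1 to -6.80). The other classes had lower shares: CTR-only peaks had 18.5%, a difference of 2.86 points with an interval from -0.14 to 5.85 that includes 0, and IgG-only peaks 15.4%, a difference of 6.01 points (3.54 to 8.57). Over 500 kb from any lay 345 regions, 24.6% (22.4% to 26.9%), against 10.2% of BPP-only, 27.5% of CTR-only and 14.2% of IgG-only peaks. Among the 134 shared peaks without a gene that were left out for overlapping IgG, the share was 44.0%.

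**Figure D4:**
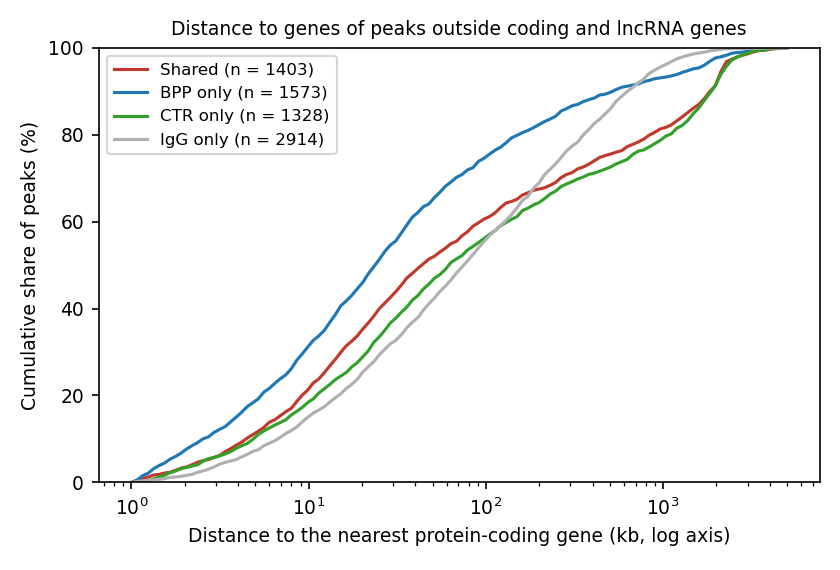
Cumulative share of intergenic peaks (y, percent) by distance to the nearest protein-coding gene (x, kb, log axis) for shared regions and for BPP-only, CTR-only and IgG-only peaks. The shared curve runs below the BPP-only curve near genes, with 21.4% against 31.3% at 10 kb, and 24.6% of shared regions lie beyond 500 kb.

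The regions far from genes were concentrated in few places, the long gene-free stretches that hold centromeres and their satellite repeats on several chromosomes. Between ZNF37A and ZNF33B on chromosome 10, a stretch of 4.42 Mb, there were 87, with folds from 2.96 to 13.96 in BPP and from 2.85 to 17.1 in CTR. In the gene-free middle of chromosome 1 there were 41 (3.25 to 19.1 and 3.13 to 19.7). Chromosome 19 had 33 between ZNF254 and UQCRFS1, and chromosome 12 had 18 between ALG10 and ALG10B. The region chr16:38276102-38276524 had one of the highest folds, 19.6 and 17.2, at 3886 kb from any protein-coding gene. The farthest, chr22:10632871-10635510, lay 4893 kb from OR11H1, with 4.21 and 5.36.

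These far regions were narrow and their summits close. Without those over a gene, their median width was 438.5 bp, against 592 bp for the regions at 1 to 10 kb from a gene, and in 84.8% (80.6% to 88.3%) the summits lay within 200 bp, against 67.6% (61.6% to 73.1%) at 1 to 10 kb. A fold of 10 or more was reached by 70 of 336 far regions and by 101 of all 1403. An IgG peak lay within 10 kb of 23 of the 336 (6.85%), and the chromosome 10 stretch held 24 IgG peaks, 3 regions being within 10 kb of one. Satellite repeats are near-identical over long distances, and the part of read placement in these values was not tested. Without the far regions the set is 5.93% of the BPP list and its median fold is 4.64.

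**Figure D5:**
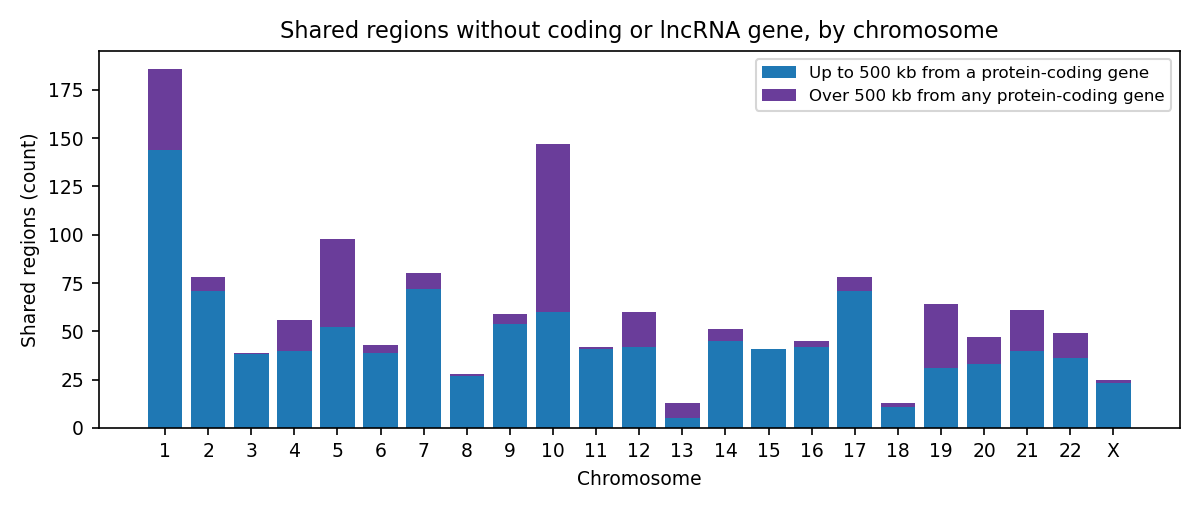
Number of shared regions on each chromosome (x) as stacked bars (y, count): regions up to 500 kb from a protein-coding gene and those farther away. Chromosome 10 has 147 regions, of which 87 are over 500 kb from a coding gene, and chromosome 1 has the most, 186.

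Part of the regions stood in groups. Another region lay within 0.0125 Mb, the distance often used to join enhancers into larger domains, of 446 regions (31.8%, interval 29.4% to 34.3%). This share was 56.9% for regions over a structural or small RNA gene. For regions at 1 to 10 kb from a coding gene with no gene beneath, it was 21.3%. It was not computed for other classes of peaks. There were 50 groups of at least 3, with 194 regions, and 13 groups of at least 5. The largest held 10 regions on chromosome 21, chr21:8204824-8245396, around a 45S gene, with BPP folds from 1.86 to 4.83. Groups of 8 lay at chr1:16619690-16667471, over the pseudogene CROCCP2 and RNU1-3, at the U2 array, and at the 5S array. Next came 6 regions at chr21:8406776-8428418, over CDC27P10, then 8 groups of 5. By covered length the first 3 of these lay at chr10:40128166-40158874, at the other end of the U2 array, and over TEKT4P2 on chromosome 21.

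Some groups lay near coding genes. Chosen after their values were seen, 5 regions at chr2:84919845-84946923 lie between TMSB10, which codes for an actin-sequestering peptide, and KCMF1, with folds from 4.00 to 5.00 in BPP and from 4.09 to 4.73 in CTR. At chr5:149471094-149487216, 5.77 kb from the casein kinase gene CSNK1A1, 3 regions had 2.67 to 4.23 and 3.18 to 3.64. Neither span held an IgG peak. VCL, which links integrins to actin, had 3 regions 29.6 kb away at folds from 2.95 to 4.26 in BPP.

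Among single regions near coding genes, 1 beside LPCAT1, a phospholipid acyltransferase gene, at chr5:1539561-1540308 had 14.6 and 14.01. One 1.23 kb from the transcription factor gene DEAF1, at chr11:642626-643005, had 10.7 and 9.87. PPIAL4F had a region 46.0 kb away, at chr1:144546096-144546917, with 13.4 and 12.9 and a −log10 q of 188 and 147. PRKAB2, which codes for a subunit of the energy sensor AMPK, was the nearest gene, at 69.7 kb, of the RNVU1-8 region. The widest region, chr16:33710754-33713690, spanned 2937 bp with folds of 3.93 and 3.93, near TP53TG3F. The next widest, near FOXD4L5, ANKRD62, CCNYL1B and OR11H1, had BPP folds from 3.75 to 4.33.

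Further regions, chosen after their values were seen, were among the strongest at each distance from genes without any gene beneath them. At 1 to 10 kb these were regions near TNNT3, a troponin gene (12.4 and 13.7), MMP8, a neutrophil collagenase gene (12.8 and 14.2), PSAP, which codes for the precursor of the lysosomal saposins (6.46 and 7.44), and FRMD8 (3.70 and 4.04). At 10 to 100 kb, the region near NID1, a basement membrane gene, had 13.9 and 10.4, and that near CHAMP1, a kinetochore-microtubule attachment gene, 18.4 and 15.9. At 100 to 500 kb, the region 247 kb from RASA1, a negative regulator of RAS, had 9.34 and 7.89, and that 107 kb from ATF7IP, a partner of the histone methyltransferase SETDB1, 5.37 and 4.34.

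Per Mb of chromosome, regions were densest on chromosome 21 with 1.31, chromosome 10 with 1.10 and chromosome 19 with 1.09, and sparsest on chromosome 13 with 0.114, X with 0.160 and 18 with 0.162. Without the regions over 500 kb from a coding gene, chromosome 10 had 0.449 and chromosome 19 had 0.529, while chromosomes 21 and 17 were the densest with 0.857 and 0.853. Copy number of the A2780 chromosomes was not measured in these files, and its part in the counts was not tested.

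The nearest coding genes of the regions were more often marked at their own ends than protein-coding genes as a whole. Of 756 distinct nearest genes, 233 (30.8%, interval 27.6% to 34.2%) had an H3K27ac peak within 1 kb of an end in both lists, against 23.6% of all 19974 protein-coding genes. For IgG-only peaks the share was 18.4%, a difference of 12.45 points (8.83 to 16.2). For BPP-only peaks it was 27.1%, a difference of 3.68 points with an interval from -0.47 to 7.89 that includes 0. For CTR-only peaks it was 25.4%, a difference of 5.38 points (0.97 to 9.78). At 1 to 10 kb the shares were 34.3% for shared regions and 25.1% for BPP-only peaks, a difference of 9.24 points (2.50 to 16.1), and 22.9% for CTR-only peaks, a difference of 11.4 points (3.66 to 19.0). At 10 to 100 kb, shared regions and BPP-only peaks differed by 1.21 points (-4.53 to 7.04). The share for shared regions was 30.9% at 10 to 100 kb, 29.2% at 100 to 500 kb and 30.4% (19.9% to 43.3%) over 500 kb. Whether a region acts on its nearest gene was not tested.

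A region lay within 50 kb of 1304 protein-coding genes, 6.53% of all, and 12 gene lists were read against that share. Of the AP-1 and stress transcription factors, 6 of 18 had one (33.3%, interval 16.3% to 56.3%). FOSB had the selenocysteine tRNA region above. IER2, an immediate early gene, had a region at 8.47 kb with folds of 5.32 and 3.83, and KLF6, a zinc-finger factor, one at 42.6 kb with 6.48 and 5.64. JUND, an AP-1 partner of FOS proteins, had one at 22.9 kb with 2.95 and 3.83, which lies closer to LSM4. The others were FOS, with 2 regions, and FOSL1, with 1 region at 11.3 kb, named although outside the rule for names. The FOSL1 region lies closer to C11orf68 (4.43 kb).

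Mesenchymal and matrix genes had a region in 5 of 23 (21.7%, interval 9.66% to 41.9%). VIM, the intermediate filament of mesenchymal cells, had 4 regions within 50 kb. The strongest, at 15.1 kb with folds of 4.76 and 3.23, lies closer to TRDMT1 (10.7 kb). ITGB1, the common beta integrin, had 2, the strongest at 13.05 kb with 5.12 and 6.41. S100A4 had 6.61 and 4.32 at 27.7 kb, in a region closer to S100A6 (18.7 kb). The collagen gene COL3A1, outside the rule for names, had 4.54 and 5.41 at 7.69 kb.

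Of WNT, NOTCH and TGF-beta genes, 5 of 32 had a region (15.6%, interval 6.86% to 31.8%). AXIN2, a negative regulator and target of WNT signalling, had the strongest, chr17:65499976-65500360 at 28.2 kb, with folds of 9.86 and 7.04. ID1, an inhibitor of helix-loop-helix factors, had 2, with 4.06 and 3.42 for the stronger. HES1, a NOTCH target, had 5.01 and 4.38 at 3.16 kb, AXIN1 3.73 and 3.55, and TGFB1, the ligand, 2.46 and 2.95. Of 28 growth factor receptor and MAPK genes, 4 had one (14.3%, interval 5.70% to 31.5%), an interval that includes the 6.53% of all genes. SPRY1, an inhibitor of receptor signalling, had 6.72 and 7.05 at 40.5 kb, the related SPRY2 6.10 and 4.53 at 26.4 kb and the MAP kinase phosphatase gene DUSP1 4.29 and 4.32 at 2.67 kb, and the receptor gene FGFR3 had 2.73 and 4.06 at 13.3 kb.

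The other lists had 2 genes or fewer with a region, and the interval of each share includes the 6.53% of all genes. The share was 9.09% in the ovarian list and in the BIN2, RPS6 and S6 kinase list, and 7.69% for YAP-TEAD targets. It was 3.03% for developmental factors, 4.35% for cell cycle genes and 4.17% for deacetylases and co-repressors. Ovarian carcinoma and epithelial identity had 2 of 22, the tight-junction gene CLDN4 (7.77 kb, 5.595 and 6.80) and the epithelial factor ELF3 (39.6 kb, 5.31 and 4.20). Developmental factors had 1 of 33 and YAP-TEAD targets 1 of 13, the latter CCN1 (5.02 kb, 4.15 and 3.98). Cell cycle genes had 1 of 23, the CDK inhibitor gene CDKN2C (1.90 kb, 5.42 and 5.603). Histone deacetylases and co-repressors had 1 of 24, MTA2, at 38.8 kb from a region that lies 5.15 kb from EEF1G. BIN2, RPS6 and S6 kinases, the list closest to the peptide's target, had 1 of 11, RPS6KA1 at 45.1 kb, with 5.06 and 6.19. The MYC network had 0 of 12 and the pluripotency factors 0 of 12 matched genes, which allows a share of up to 25% in each.

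Promoters of these genes were marked in some cases only. Of the 27 list genes with a region within 50 kb, 21 had a promoter entry, and 6 of these 21 windows overlapped a peak in both lists, against 19.0% of all protein-coding genes with an entry. They were KLF6, FOS, S100A4, DUSP1, CDKN2C and MTA2. For VIM and SPRY2 the window overlapped a peak in BPP only, and for ITGB1 in CTR only. With 1 library each, a peak in 1 list is a statement about that list and its threshold.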

How the data were processed

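The data were 3 CUT&Tag peak lists, 1 per library, deposited by the authors. The submitters' processing notes name build GRCh38.p13 (hg38) and the tools fastp, deepTools 3.3.0 and Bowtie2 2.4.1. Which peak caller was used, and whether IgG served as its control, is not stated in the sources used here. The deposited fold per peak is a ratio to a background that is not described, and the deposited −log10 p-values and q-values come from the authors' peak caller. The authors' score per peak repeats the −log10 p and was not used. Peaks outside chromosomes 1 to 22 and X were left out, which kept 17841 peaks of 17869 for BPP, 14836 of 14873 for CTR and 7701 of 7715 for IgG.

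Where a region overlapped several CTR peaks, as 16 did, the CTR peak with the largest overlap gave its CTR values. Genes came from a RefSeq table of GRCh38.p14, which has the coordinates of the deposited build on these chromosomes. Some of its entries carry coordinates of unplaced scaffolds under a chromosome's name; 20 regions lie in the first 1 Mb of a chromosome, where this could matter. Region sequences and GC content were not analysed here. Shares carry 95% Wilson intervals, differences Newcombe intervals, computed with Python 3.11.15, pandas 2.3.3 and numpy 2.4.6. Overlaps were checked against bedtools 2.31.1 and tested on simulated data.

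Named regions were the 12 with the highest BPP −log10 q, the 5 widest, the 12 over small RNA genes and 8 over pseudogenes with the highest −log10 q, the 8 largest groups (ties by covered length), the 6 farthest from genes, and up to 4 genes per list; others were named after their values were seen. The 28 regions on chromosome 8 were counted, not named, and some genes that the rule would name are not reported here. The regions and gene lists were chosen with earlier results of these data known.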

Additional observations from a re-analysis of the deposited data

How the results depend on the processing

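The counts and shares were recomputed under other choices. Where an overlap of 50% of both peaks was asked for, the regions were 6.35% of the BPP list, 28.2% had another within the joining distance, the median fold was 5.22, the median −log10 q 11.1, and 80.3% had close summits. With a −log10 q of at least 5 in all lists these were 8.44% of the list, 19.0% within 10 kb of a gene, a median width of 600.0 bp, a fold of 5.35, a −log10 q of 12.1 and 76.1% with close summits. A fold of at least 5 in all lists left 575 regions, 9.64% of the list, with 13.7% over another gene, 11.1% within 10 kb of a gene and 16.3% with a neighbour. A 5 kb gene window gave 6.43% of the list, and counting CTR peaks instead gave 9.42% of the CTR list. Extending other genes by 1 kb put 19.4% over one. Joined at 5 and 25 kb, 16.6% and 41.8% had a neighbour, and 632 and 2238 coding genes had a region within 20 and 100 kb. Chosen after seeing the data, leaving out regions over 500 kb from coding genes gave 5.93% of the list (7.10% for CTR peaks), 19.9% over another gene, 28.4% within 10 kb, a median width of 592 bp, a fold of 4.64, a −log10 q of 9.52 and 69.4% with close summits. These settings keep fewer or other peaks by construction. No paired analysis was possible because each group has 1 library. Depth is unknown, so a region's absence from a list cannot be told apart from shallow sequencing.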
